A study of Macaca mulatta with 38 samples.

Results

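The genes SPP1, FBLN7, CNMD, SERPINA3, C1QTNF5, NT5E and B3GNT7 were chosen by their read counts, which stood far higher in cultures from embryonic day 77 (E77) than in cultures from embryonic day 42 (E42). They are 7 of the 34619 genes in the deposited count table, and all 7 were among the 20794 genes with enough reads to be tested. The difference between the ages is given below as a description with no test. The same choice can favour genes that are high in only some E77 libraries, so counts of these genes in other comparisons are also read as descriptions of the 7.

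The study grew neural stem cells from wild-type fetal rhesus macaque (Macaca mulatta) cortex and sequenced polyadenylated RNA in bulk, with 1 library per series and day in vitro. The 4 series came from an Anterior and a Posterior dissection at E42 and from a Frontal and an Occipital one at E77. All series were plated on polyornithine and fibronectin in N2 medium with FGF2 at 5% oxygen, and from day 5 differentiated without FGF2 in Neurobasal and B27 medium with BDNF and NT-3, in every group alike. The stem phase held days 1, 3 and 5, the transition days 6, 7 and 8, and the terminal phase days 11, 14 and 17, with day 20 at E77 alone. This gave 20 E77 and 18 E42 libraries, 3 or 4 per series and phase. RNA came from 2 wells per condition, and the labels do not say how many fetuses gave each series. Libraries of a group are therefore successive days of a culture series. The p-values of phase comparisons measure the spread between days. Those averaged over both regions count the libraries of the same day as independent, which can make these p-values too small. The p-values of region comparisons measure the spread left after a term for day that all 4 series share. Age and region cannot be told apart from fetus, dissection or culture run.

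Most of the encoded proteins act outside the cell. Osteopontin (SPP1) is a secreted phosphoprotein that binds integrins and CD44, fibulin-7 (FBLN7) is a matrix protein to which cells adhere, and chondromodulin (CNMD) is a cartilage glycoprotein known as an inhibitor of vessel growth. Alpha-1-antichymotrypsin (SERPINA3) is a secreted serine protease inhibitor of the acute phase response that reactive astrocytes also make, and C1QTNF5 is a secreted protein with a C1q domain, best known from the retinal pigment epithelium. NT5E is the ecto-5′-nucleotidase CD73, which is anchored on the cell surface and turns extracellular AMP into adenosine. B3GNT7 is different: it is a Golgi glycosyltransferase that helps to extend keratan sulfate chains. Progenitors of the fetal cortex sit in a matrix of such secreted and surface proteins, and outer radial glia in particular are known for genes of matrix and adhesion.

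Library totals ran from 20149635 to 56363300 counts (median 27597365.5). Markers of radial glia were present in all series. Summed markers of fibroblasts and pericytes reached 13900 to 39300 CPM (the count as a share of the scaled library total) in E42 Anterior and at most 353 CPM in the other series, so the E42 Anterior libraries stand apart. Summed microglial markers were 0.59 to 2.09 CPM in E77 Frontal, 0 to 0.215 CPM in E77 Occipital and at most 0.479 CPM at E42, and hemoglobin beta (HBB) was at 0 in all 38 libraries. In bulk RNA, fewer cells of a type and less RNA per cell cannot be told apart.

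The label of E77 progenitors holds for only some of the genes. SPP1, FBLN7 and CNMD were highest in the stem phase and fell as the cultures differentiated. C1QTNF5 did the opposite, with its highest E77 levels in the terminal phase, and SERPINA3 also peaked late. NT5E had a high start, a low middle and a late rise in both E77 series. B3GNT7 had the same course in Frontal cultures and a late climb from a low start in Occipital ones. Over all E77 days, 6 of the 7 genes differed between the Frontal and Occipital series, where 30.1% of all tested genes did so. SPP1, FBLN7, CNMD and SERPINA3 were higher in Frontal cultures throughout. NT5E was higher in Occipital cultures, though not called in the stem phase. B3GNT7 changed sides, with a terminal call that was lost in 11 of 16 other settings.

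**Figure D1:**
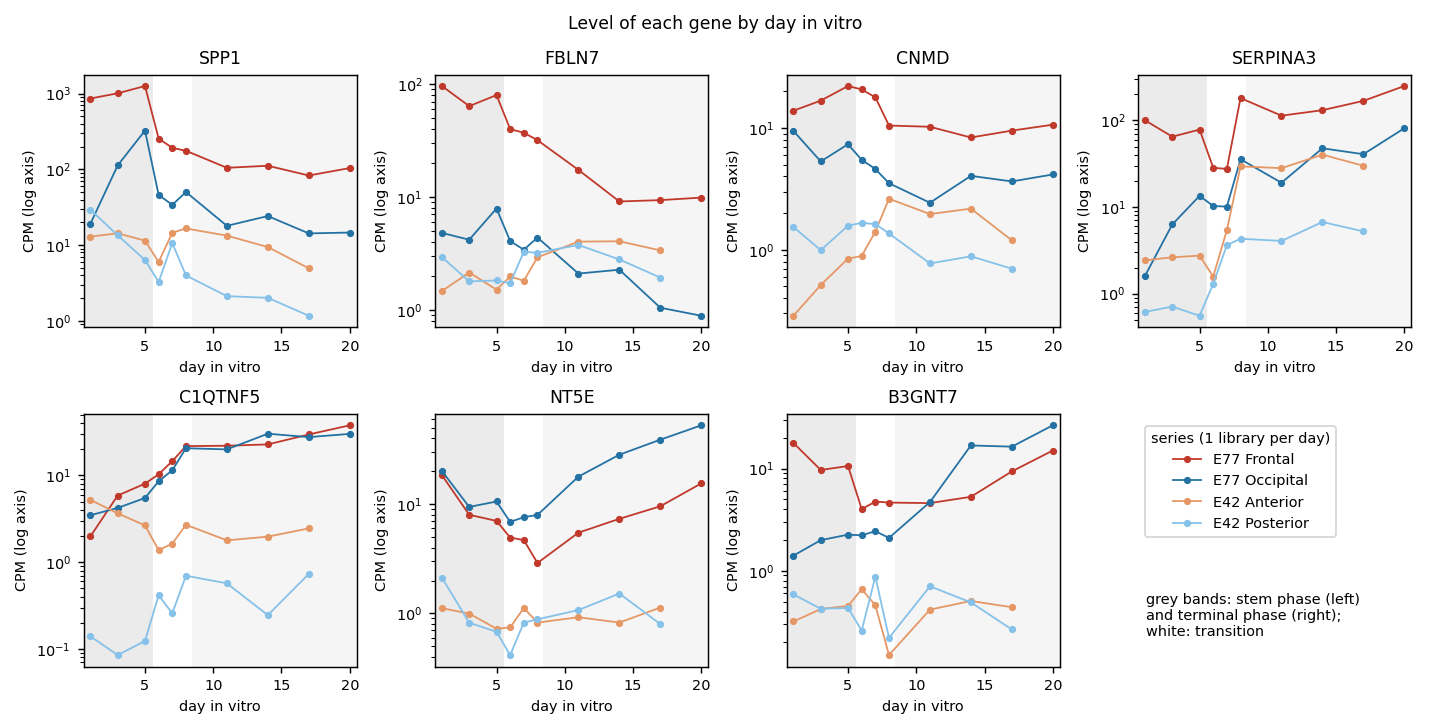
Level of each gene in CPM (log axis) against day in vitro, 1 point per library, with a line for each of the 4 series and grey bands for the stem and terminal phases. Frontal FBLN7 falls from 96.1 to 9.88 CPM, C1QTNF5 climbs in both E77 series, and Occipital B3GNT7 climbs from 1.41 to 26.5 CPM.

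Per length of transcript, SPP1 had the highest mean of the 7 over the E77 libraries, at 155 RPKM (reads scaled to gene length and library total; range 8.67 to 784, n = 20). SERPINA3 followed at a mean of 43.8 RPKM (range 0.988 to 144). These ranges overlap, and in the terminal phase SERPINA3 had the higher mean (64.6 against 36.5 RPKM). The means of FBLN7 (9.68), C1QTNF5 (9.1), CNMD (6.24), NT5E (3.46) and B3GNT7 (3.2) lay lower, with overlapping ranges. At E42 the means ran from 5.82 RPKM for SPP1 and 5.57 for SERPINA3 down to 0.172 for B3GNT7, which had 4 to 34 reads in any E42 library.

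The difference between the ages that brought the genes together took 3 forms. In the stem phase the ratio of mean CPM, E77 over E42, was 40.9 for SPP1, 27.4 for SERPINA3, 22 for FBLN7, 16.6 for B3GNT7, 13 for CNMD, 11.4 for NT5E and 2.44 for C1QTNF5. In the terminal phase it was 26.2 for B3GNT7, 21.3 for C1QTNF5 and 20.9 for NT5E, and had dropped to 10.8 for SPP1, 5.58 for SERPINA3, 5.17 for CNMD and 1.96 for FBLN7. The age gap thus narrowed with time for SPP1, FBLN7, CNMD and SERPINA3 and widened for C1QTNF5. For NT5E and B3GNT7 it was smallest in the transition (7.26 and 7.68) and largest in the terminal phase.

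Every E77 library was above every E42 library for NT5E and B3GNT7, 2 of the 7, where 0.914% of all tested genes did so. Within phases that held for 4 of the 7 in the stem phase (background 9.41%), 6 in the transition (9.53%) and 5 in the terminal phase (5.79%), counts that the choice of genes fixes in part. The exceptions came mostly from Occipital cultures. Occipital SPP1 on day 1 was 0.65 times the Posterior level of the same day, and Occipital FBLN7 went down to 0.541 times the Posterior level. C1QTNF5 was an exception in Frontal cultures, at 0.379 times the Anterior level on the day with the lowest ratio. Its Occipital levels on days 1 and 3 (3.48 and 4.22 CPM) were also under Anterior day 1 (5.24 CPM). SERPINA3 overlapped between the ages in every phase. Its Anterior day 8 level (29.5 CPM) was above Frontal days 6 and 7 (28.5 and 27.5 CPM).

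SPP1 was the gene with the steepest drop. In Frontal cultures it stood at 863, 1011 and 1262 CPM on days 1, 3 and 5, at 255, 192 and 176 CPM on days 6, 7 and 8, and between 83.1 and 112 CPM on days 11 to 20. In Occipital cultures it went from 19.1 CPM on day 1 to 113 on day 3 and 326 on day 5, then to 46, 34 and 50.3 CPM, and to 14.3 to 24.2 CPM in the terminal phase. The 3 phases did not overlap in Frontal cultures, while the Occipital day 1 library was as low as the terminal ones. The step from day 5 to day 6, the first day without FGF2, was a fall of 4.95 times in Frontal and 7.09 times in Occipital, against 1.91 times in E42 Anterior and 1.96 times in E42 Posterior. At E42, SPP1 ranged from 1.17 to 29.4 CPM and was highest in the Posterior day 1 library.

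By edgeR's quasi-likelihood test with Benjamini-Hochberg adjustment, averaged over both regions, SPP1 fell by 2.07 on the log2 scale from stem to transition at E77 (SE 0.41, adjusted p = 4.28e-04, n = 6 against 6). It fell by a further 1.17 from transition to terminal (SE 0.37, adjusted p = 0.0133, n = 6 against 8). The first fall was also called in each region alone, and the second in neither (adjusted p = 0.154 in Frontal and 0.0765 in Occipital). Microglia are a known source of osteopontin in brain tissue. Their receptor gene CSF1R had 1 to 12 reads in a Frontal library and 0 to 2 in an Occipital one. Summed microglial markers were 0.935 to 2.07 CPM in Frontal stem libraries and 1.02 to 2.09 CPM in Frontal terminal ones. The part of microglia in the SPP1 levels was not tested.

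FBLN7 showed the widest gap between the regions. Frontal cultures held 96.1, 63.8 and 79.9 CPM in the stem phase, 39.9, 37.1 and 31.9 CPM in the transition, and 17.4, 9.13, 9.38 and 9.88 CPM in the terminal phase. Occipital cultures held 4.81, 4.18 and 7.91 CPM, then 4.08, 3.41 and 4.37, then 2.1, 2.27, 1.05 and 0.888 CPM. Every Frontal library was above every Occipital library, and the Occipital levels lay in or below the E42 range of 1.47 to 4.06 CPM from day 11 on. The high E77 level of FBLN7 was therefore a Frontal level for the most part.

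At E77, FBLN7 fell by 0.83 on the log2 scale from stem to transition (SE 0.21, edgeR adjusted p = 0.00463) and by 1.50 from transition to terminal (SE 0.21, adjusted p = 2.11e-06). The second fall was called in Frontal and in Occipital cultures alike, the first in Frontal alone (Occipital -0.51, adjusted p = 0.293). FBLN7 moved the other way at E42, where it rose by 0.77 from stem to terminal (SE 0.23, edgeR adjusted p = 0.00695). That rise was called in Anterior cultures, the series with the high fibroblast markers (1.16, adjusted p = 0.00664), and not in Posterior ones (0.37, adjusted p = 0.389).

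CNMD varied less. In Frontal cultures it was 13.9, 16.8 and 22.1 CPM in the stem phase, 20.7, 17.9 and 10.5 CPM in the transition, and 8.36 to 10.7 CPM in the terminal phase. Occipital cultures had 9.47, 5.32 and 7.36 CPM, then 5.48, 4.61 and 3.52, then 2.43 to 4.16 CPM. The Frontal decline came between days 6 and 8, the Occipital one was gradual, and no terminal library reached the stem levels of its series. At E42, CNMD ranged from 0.287 to 2.63 CPM.

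From transition to terminal at E77, CNMD fell by 0.55 on the log2 scale (SE 0.20, edgeR adjusted p = 0.0312), a call lost on leaving out any one of 6 libraries: Frontal days 6, 7 and 14, and Occipital days 6, 7 and 11 (adjusted p = 0.0544 to 0.108). Its fall of 0.95 from stem to terminal (SE 0.20, adjusted p = 1.86e-04) was called in both regions. The summed level of cartilage markers in Frontal cultures was 463 to 624 CPM in the stem phase and 463 to 671 CPM in the terminal phase. Summed markers of outer radial glia went from 6470 to 7680 CPM in Frontal stem libraries to 2830 to 3960 CPM in terminal ones, and from 6230 to 7730 to 3600 to 4180 CPM in Occipital cultures. They fell over the same E77 phases as SPP1, FBLN7 and CNMD. In the stem phase their Frontal and Occipital ranges overlapped, while these genes were higher in all Frontal libraries. At E42 the markers fell from 2750 to 3260 to 1430 to 2170 CPM in Anterior cultures, where FBLN7 and CNMD rose. In Posterior ones they fell from 3340 to 5260 to 2140 to 2260 CPM, where SPP1 alone of these genes was called, as a fall. The part of these markers in the E77 falls was not tested.

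SERPINA3 was highest on day 20 in both E77 series. Frontal cultures had 100.5, 65 and 78.5 CPM in the stem phase, 28.5 and 27.5 CPM on days 6 and 7, 181 CPM on day 8, and 114, 131, 168 and 249.9 CPM from day 11 to day 20. Occipital cultures had 1.6, 6.3 and 13.5 CPM, then 10.3, 10.1 and 35.7, then 19.1, 47.8, 40.8 and 81.3 CPM. Frontal levels dipped on days 6 and 7, and the Occipital day 1 library was the lowest of its series. From day 7 to day 8 the level was multiplied by 6.58 in Frontal, 3.53 in Occipital, 5.46 in E42 Anterior and 1.19 in E42 Posterior cultures.

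From stem to terminal, SERPINA3 rose by 1.88 on the log2 scale at E77 (SE 0.51, edgeR adjusted p = 0.00261) and by 3.36 at E42 (SE 0.64, adjusted p = 7.9e-05). In Frontal cultures alone the E77 value was 1.03 (adjusted p = 0.231). Between transition and terminal libraries of E77 the change was 1.20 (SE 0.49, adjusted p = 0.0502). It became 1.95 without the Frontal day 8 library (adjusted p = 0.00269) and 1.64 without the Occipital one (adjusted p = 0.0147). GFAP, the astrocyte intermediate filament, went from 2970 to 5290 CPM between days 7 and 8 in Frontal cultures and from 2170 to 3650 CPM in Occipital ones. The astrocyte markers as a list summed to 7010 to 8930 CPM in the Frontal stem phase. They summed to 5200 to 7530 CPM in the Frontal transition and 6880 to 11800 CPM in the Frontal terminal phase. Occipital cultures went from 4870 to 5220 CPM in the stem phase to 5270 to 9030 CPM in the terminal phase. Over the same phases E42 Anterior went from 3170 to 3570 to 3470 to 4180 CPM, and E42 Posterior from 2310 to 4030 to 2740 to 3200 CPM. SERPINA3 was called as a rise in both E42 series. The part of these markers in the SERPINA3 levels was not tested. SERPINA3 neighbours SERPINA5, a pseudogene and another coding gene in RefSeq's rhesus annotation, and reads shared with a near-identical copy were not examined.

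C1QTNF5 was low in the stem phase and high in the terminal phase in both E77 regions. Frontal cultures had 1.98, 5.87 and 8.05 CPM in the stem phase, 10.3, 14.6 and 21.8 CPM in the transition, and 22, 22.8, 29.7 and 37.8 CPM in the terminal phase. Occipital cultures had 3.48, 4.22 and 5.5, then 8.56, 11.5 and 20.6, then 20, 30.3, 27.7 and 30.1 CPM. Stem and transition libraries did not overlap in either series. E42 Anterior held 1.38 to 5.24 CPM and E42 Posterior 0.0852 to 0.734 CPM, the latter from 3 to 22 reads.

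C1QTNF5 rose by 1.59 on the log2 scale from stem to transition at E77 (SE 0.27, edgeR adjusted p = 7.06e-05) and by 0.92 from transition to terminal (SE 0.25, adjusted p = 0.00351). The first rise was called in each region, and the second in Occipital (adjusted p = 0.0367) but not in Frontal cultures alone (0.85, adjusted p = 0.0783). In RefSeq's rhesus annotation it overlaps the end of MFRP, which encodes a frizzled-related membrane protein, and the genes can share a transcript, so the reads of the pair may not be cleanly divided. MFRP was far lower per length, at a mean of 0.513 RPKM at E77 against 9.1 RPKM for C1QTNF5, and it too rose from stem to transition (2.56, SE 0.38, adjusted p = 1.54e-05). Summed neuronal markers rose over the same days, from 302 to 1050 CPM in Frontal stem libraries to 1900 to 2410 CPM in terminal ones. They rose at E42 too, to 2240 to 2610 CPM in Anterior and 2800 to 3220 CPM in Posterior terminal libraries. From stem to terminal C1QTNF5 rose in Posterior cultures at very low counts (2.17, edgeR adjusted p = 0.0118). In Anterior ones it did not pass (-0.895, adjusted p = 0.0771). The part of neuronal markers in the C1QTNF5 rise was not tested.

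NT5E had a U-shaped course at E77. Frontal cultures had 18.4, 7.99 and 7.02 CPM in the stem phase, 4.95, 4.69 and 2.9 CPM in the transition, and 5.48, 7.34, 9.56 and 15.5 CPM in the terminal phase. Occipital cultures had 20.1, 9.42 and 10.6, then 6.88, 7.6 and 7.97, then 17.8, 28.3, 38.9 and 52.6 CPM. Day 1 was thus high in both series, and from day 11 on all Occipital libraries exceeded all Frontal ones. E42 levels stayed between 0.417 and 2.13 CPM, with the Posterior day 1 library the highest.

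At E77, NT5E fell by 1.13 on the log2 scale from stem to transition (SE 0.29, edgeR adjusted p = 0.00445) and rose by 1.69 from transition to terminal (SE 0.28, adjusted p = 2.66e-05). The fall was called in Frontal cultures (-1.42, adjusted p = 0.0257) and not in Occipital ones (-0.84, adjusted p = 0.171). It rested on day 1: without both day 1 libraries, a choice made after seeing the data, it was -0.62 with an adjusted p of 0.144. The rise was called in Frontal (1.18, SE 0.40, adjusted p = 0.0334) and in Occipital cultures (2.20, SE 0.40, adjusted p = 2.74e-04). From stem to terminal the value was 0.57 (adjusted p = 0.0713), and 1.05 without the day 1 libraries (adjusted p = 0.00284).

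B3GNT7 followed a U in Frontal cultures and a late climb in Occipital ones. Frontal cultures had 17.8, 9.69 and 10.6 CPM in the stem phase, 4.01, 4.76 and 4.65 CPM in the transition, and 4.6, 5.29, 9.38 and 15 CPM in the terminal phase. Occipital cultures had 1.41, 1.99 and 2.26, then 2.22, 2.44 and 2.1, then 4.7, 16.8, 16.4 and 26.5 CPM. The Occipital climb came between days 8 and 14. E42 levels were 0.15 to 0.877 CPM with no overlap with E77.

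Averaged over regions, B3GNT7 rose by 1.89 on the log2 scale from transition to terminal at E77 (SE 0.31, edgeR adjusted p = 2.41e-05), with 2.84 in Occipital (SE 0.46, adjusted p = 8.76e-05) and 0.94 in Frontal cultures (adjusted p = 0.112). From stem to terminal the mean over regions was a rise of 1.26 (SE 0.30, adjusted p = 7.72e-04) that came from the Occipital cultures: they rose by 3.09 (SE 0.47, adjusted p = 5.15e-06), and the Frontal value was -0.56 (adjusted p = 0.27). Summed markers of the oligodendrocyte lineage were 1430 to 3430 CPM in Occipital terminal libraries, against 869 to 1020 CPM in the Occipital transition and 450 to 1240 CPM in Frontal terminal libraries. In Occipital terminal libraries they were high together with NT5E and B3GNT7. In the stem phase they were lower in Frontal cultures (417 to 567 CPM) than in Occipital ones (897 to 1040 CPM). Mean B3GNT7 there went the other way, at 12.7 CPM in Frontal and 1.89 CPM in Occipital cultures. The part of these markers in the NT5E and B3GNT7 levels was not tested.

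**Figure D2:**
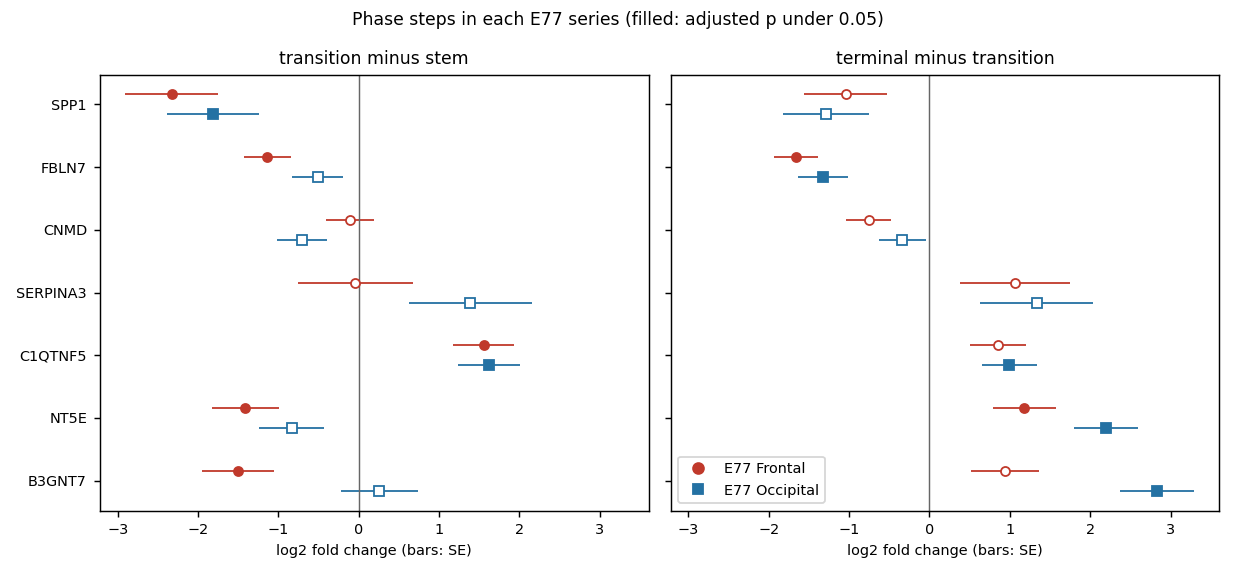
Log2 fold change with its SE for each gene from stem to transition and from transition to terminal, for E77 Frontal (circles) and E77 Occipital (squares), filled where the edgeR adjusted p was under 0.05. SPP1 and FBLN7 lie left of 0 in both steps, C1QTNF5 right of 0 in both, and NT5E crosses from left to right.

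Over the 7 genes at E77, 1 rose and 3 fell from stem to transition (26.8% of all tested genes were called in that comparison), with a median log2 change of -0.63 against 0.01 over all genes. The later step had 3 that rose and 3 that fell (41.4% called), with a median of 0.92 against 0.02. Between stem and terminal 3 rose and 3 fell (56.2% called, median 0.57 against 0). Frontal cultures alone gave 5 calls from stem to transition (10.9% of all tested genes), 4 from stem to terminal (43.2%) and 2 from transition to terminal (19.9%). Occipital cultures alone gave 2 (14.7%), 7 (41.2%) and 4 (23.2%). The comparisons with the stem phase share libraries with the age difference that chose the genes. The one from transition to terminal leaves out the stem libraries, but its libraries also belong to the E77 cultures compared with E42. None of these comparisons is therefore taken as free of that choice.

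Fewer of the 7 genes were called between phases at E42, and whether a change differed between the ages was not tested. From stem to transition SERPINA3 and CNMD rose, 2 of the 7 (27.7% of all tested genes called), by 2.24 (SE 0.65, edgeR adjusted p = 0.0109) and 0.87 (SE 0.25, adjusted p = 0.0105) on the log2 scale. Both calls rested on the Anterior day 8 library, without which the values were 1.35 and 0.62 (adjusted p = 0.108 and 0.066). From stem to terminal SERPINA3 and FBLN7 rose and SPP1 fell by 1.85 (SE 0.45, adjusted p = 0.00119), 3 of the 7 (50% called). The SPP1 fall was called in Posterior cultures alone (-3.23, adjusted p = 4.95e-04), with -0.48 in Anterior ones (adjusted p = 0.569). Between transition and terminal 0 of the 7 passed by edgeR (21.8% called), 1 had an unadjusted p under 0.05 (SPP1, 0.0235), and DESeq2 and limma each called 1. NT5E and B3GNT7, both called between phases at E77, passed in none of these E42 comparisons by edgeR. Their E42 libraries held only 16 to 76 reads of NT5E and 4 to 34 of B3GNT7, which limits these comparisons. The choice of the 7 genes also favours low E42 levels.

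Region was compared at E77 within the same days. Over all days, 5 of the 7 genes were higher in Frontal and 1 in Occipital cultures (30.1% of all tested genes called). FBLN7 led with a Frontal minus Occipital log2 difference of 3.30 (SE 0.15, edgeR adjusted p = 1.73e-14, n = 10 against 10), a fold of 9.85. SPP1 differed by 2.57 (SE 0.35, adjusted p = 5.86e-06), SERPINA3 by 2.45 (SE 0.25, adjusted p = 9.17e-08) and CNMD by 1.51 (SE 0.17, adjusted p = 5.44e-08). B3GNT7 was also called higher in Frontal cultures, by 0.94 (SE 0.20, adjusted p = 7.13e-04). That value averages phases of opposite sign, 2.71 in the stem phase and -0.88 in the terminal phase. NT5E was the Occipital gene, at -1.01 (SE 0.13, adjusted p = 4.29e-07). C1QTNF5 differed by 0.16 (SE 0.16, adjusted p = 0.478), which did not pass, and by 0.32 without the Frontal day 1 library, which did (adjusted p = 0.0471).

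Day by day, the Frontal level of FBLN7 was 4.02 to 20 times the Occipital one, and that of SPP1 3.5 to 45.2 times, with the largest ratio on day 1 for both. SERPINA3 was 62.7 times higher in Frontal cultures on day 1 and 2.72 to 10.3 times higher on the later days. CNMD was 1.47 to 4.21 times higher. NT5E went from a Frontal to Occipital ratio of 0.916 on day 1 to 0.246 on day 17.

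Within phases, FBLN7, SPP1, CNMD and SERPINA3 were higher in Frontal cultures in the stem phase, in the transition and in the terminal phase alike. In the stem phase 5 of the 7 genes were called, all higher in Frontal (22.7% of all tested genes called), B3GNT7 among them at 2.71 (SE 0.38, edgeR adjusted p = 8.31e-06). In the transition 4 were higher and 1 lower (10.5% called). There SPP1 (2.27), SERPINA3 (1.79) and NT5E (-0.85) each lost the call on leaving out single libraries, so that 2 to 4 calls were left. In the terminal phase 4 were higher and 2 lower (13.6% called). NT5E was then at -1.87 (SE 0.19, adjusted p = 1.19e-07) and B3GNT7 at -0.88 (SE 0.30, adjusted p = 0.0489), the latter a call lost on leaving out any one of 6 of the 8 libraries (adjusted p = 0.0933 to 0.221). The terminal B3GNT7 difference had an adjusted p of 0.051 by DESeq2 and 0.113 by limma on log2(RPKM + 0.1). Without the day block its adjusted p by edgeR was 0.171. In that fit SERPINA3 lost its call in the transition (0.117) and in the terminal phase (0.0842), as did NT5E in the transition (0.317).

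All Frontal libraries were above all Occipital libraries over all days for 1 of the 7, FBLN7 (1.52% of all tested genes). The count was 5 in the stem phase (15.5%), 4 in the transition (12.9%) and 4 in the terminal phase (7.79%).

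**Figure D3:**
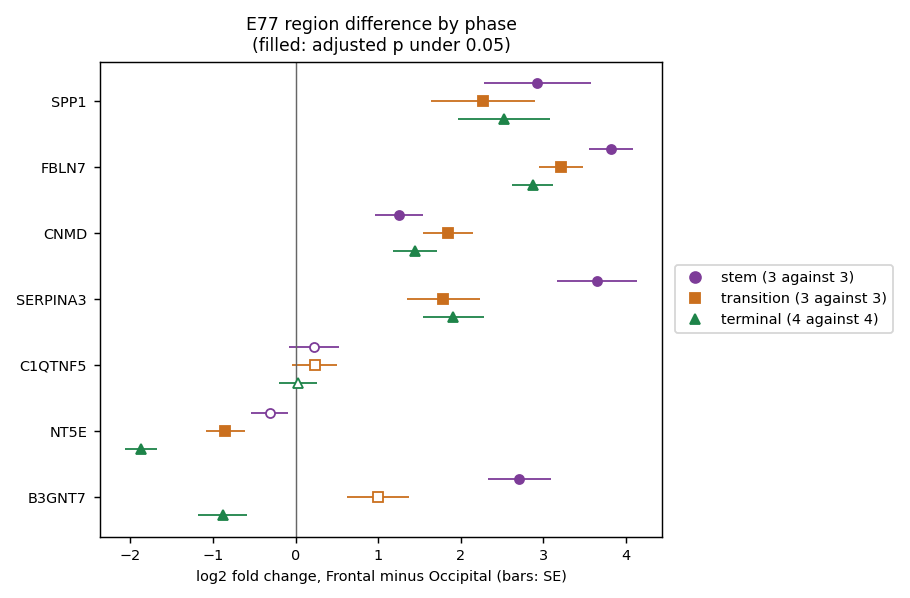
Log2 difference between E77 Frontal and E77 Occipital cultures with its SE, for each gene in the stem phase (circles), the transition (squares) and the terminal phase (triangles), filled where the edgeR adjusted p was under 0.05. SPP1, FBLN7, CNMD and SERPINA3 stay right of 0, C1QTNF5 stays near 0, NT5E moves from -0.31 to -1.87 and B3GNT7 from 2.71 to -0.88.

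Whether the change from stem to terminal itself differed between the regions was tested as an interaction, which was called for 2 of the 7 genes (5.64% of all tested genes). B3GNT7 had the larger value, -3.59 on the log2 scale (SE 0.48, edgeR adjusted p = 6.4e-05), Frontal minus Occipital. NT5E had -1.55 (SE 0.29, adjusted p = 0.00172), which without the day block was -1.60 with an adjusted p of 0.146. For SERPINA3 the value was -1.74 (adjusted p = 0.0881) and for FBLN7 -0.95 (adjusted p = 0.123). Without the Occipital day 5 library both passed, at -2.52 (adjusted p = 0.0127) and -1.32 (adjusted p = 0.0218), for 4 of the 7 in all.

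At E42 the regions differed for 3 of the 7 genes (55.3% of all tested genes called). C1QTNF5 was higher in Anterior than in Posterior cultures by 3.01 on the log2 scale (SE 0.25, edgeR adjusted p = 1.81e-10) and SERPINA3 by 2.02 (SE 0.33, adjusted p = 1.84e-05). SPP1 was higher by 0.99 (SE 0.42, adjusted p = 0.0495), a call lost on leaving out any one of 14 of the 18 libraries. Fibroblast and pericyte markers were at 13900 CPM or more in all Anterior libraries, and their part in these differences was not tested. FBLN7, the most regional gene at E77, had an Anterior minus Posterior value of -0.05 (adjusted p = 0.822).

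Partners and relatives of the 7 genes were read from lists chosen for their known roles, with the share of all tested genes called beside each count. Of 9 tested osteopontin receptors, 5 were higher in Frontal and 1 in Occipital cultures over all E77 days (30.1% of all tested genes called, median 0.47 against -0.01). CD44, the hyaluronan and osteopontin receptor, was at 49.1 RPKM in Frontal and 20.2 RPKM in Occipital cultures (1.45, SE 0.22, edgeR adjusted p = 2.54e-05), and the integrin subunit ITGB3 differed by 1.98 at a low level (0.251 against 0.0637 RPKM). From transition to terminal 1 rose (ITGA8, 1.91) and 1 fell (ITGA5, -0.76), against 41.4% of all tested genes called, with a median of -0.16 against 0.02. The other secreted phosphoproteins of the SIBLING family, which SPP1 belongs to, had too few reads to be tested in 4 of 4 cases.

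Of 7 other fibulins, 3 were higher in Frontal cultures and 0 lower (30.1% of all called, median 0.37). EFEMP1, a fibulin of elastic tissues, had the largest difference of them, 3.81 (SE 0.28, edgeR adjusted p = 3.35e-10), at 9.73 against 1.07 RPKM. FBLN5 differed by 1.12. Neither followed FBLN7 over time, since from transition to terminal EFEMP1 rose by 1.02 (adjusted p = 0.0189) and FBLN5 by 1.79 (adjusted p = 3.63e-04). In that step 2 of the 7 rose and 1 fell (41.4% of all called), with a median of -0.21.

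Relatives of CNMD that share its BRICHOS domain were few: 4 were tested and 1 was higher in Frontal cultures (30.1% of all called), ITM2A (1.19, SE 0.17, edgeR adjusted p = 3.55e-06). ITM2B and ITM2C, the most abundant at means of 135 and 86.6 RPKM, rose from transition to terminal by 0.47 and 0.61, against the fall of CNMD. Tenomodulin (TNMD), the closest relative of CNMD, was listed at no more than 0.243 RPKM in any E77 library.

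Of 16 other serpins, 8 were higher in Frontal and 1 in Occipital cultures (30.1% of all called, median 0.24), with SERPINA5 at 2.40 (SE 0.37, edgeR adjusted p = 1.04e-05). In the step to the terminal phase 7 rose and 1 fell (41.4% of all called, median 0.55 against 0.02). Among 14 tested acute phase and reactive astrocyte genes, 10 were higher in Frontal cultures and 1 lower (30.1% of all called, median 0.69). The cytokine signalling inhibitor SOCS3 differed by 2.08 (SE 0.16, adjusted p = 7.35e-11). GFAP differed by 0.69 (adjusted p = 6.9e-06), beside 2.45 for SERPINA3. In the later step 4 of these 14 rose and 2 fell, a share near the 41.4% of all genes called (median 0.02), led by the small heat shock protein CRYAB with 2.03 (SE 0.43, adjusted p = 5.22e-04).

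Of 12 tested genes of the C1q and TNF related family, 3 were higher in Frontal and 2 in Occipital cultures (30.1% of all called, median 0.25). C1QTNF1 (2.75) and C1QTNF6 (1.46) were Frontal genes and C1QL2, a synaptic member, an Occipital one (-1.33), whereas C1QTNF5 itself did not pass. In the later step 4 rose and 3 fell (41.4% of all called, median 0.20). C1QL2 rose by 1.38 (SE 0.24, edgeR adjusted p = 4.24e-05) and C1QTNF1 fell by 2.24 (SE 0.35, adjusted p = 1.14e-05).

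Of 13 other genes of extracellular adenosine, 7 were higher in Frontal and 1 in Occipital cultures (30.1% of all called, median 0.40), while NT5E was higher in Occipital ones. The adenosine receptor ADORA1 differed by 1.46 (SE 0.13, edgeR adjusted p = 2.4e-09). ENTPD2, an ecto-nucleotidase that acts upstream of NT5E, was the most abundant of the list at a mean of 44.1 RPKM. It rose from transition to terminal by 1.11 (SE 0.27, adjusted p = 0.00185), together with NT5E, while adenosine deaminase (ADA) fell by 1.30 (adjusted p = 0.0136). In that step 2 of the 13 rose and 3 fell, a share near the 41.4% of all genes called (median -0.05).

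Of 12 other keratan sulfate synthesis genes, 1 was higher in Frontal and 2 in Occipital cultures, near the 30.1% of all genes called (median -0.11). CHST1, the sulfotransferase that sulfates galactose in keratan sulfate, was at 8.62 RPKM in Frontal and 32.8 RPKM in Occipital cultures (-2.08, SE 0.11, edgeR adjusted p = 8.65e-13). Like B3GNT7 it rose from transition to terminal, by 1.04 (SE 0.15, adjusted p = 3.1e-06), and ST3GAL1 rose by 0.64, among 5 that rose and 2 that fell (41.4% of all called, median 0.14). Of 14 proteins that can carry keratan sulfate, 3 were higher in Frontal and 2 in Occipital cultures (30.1% of all called, median -0.03), with SV2C at 2.69. In the later step 4 rose and 1 fell (41.4% of all called, median 0.05), led by aggrecan (ACAN) with 3.06 (SE 0.54, adjusted p = 6.37e-05).

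**Figure D4:**
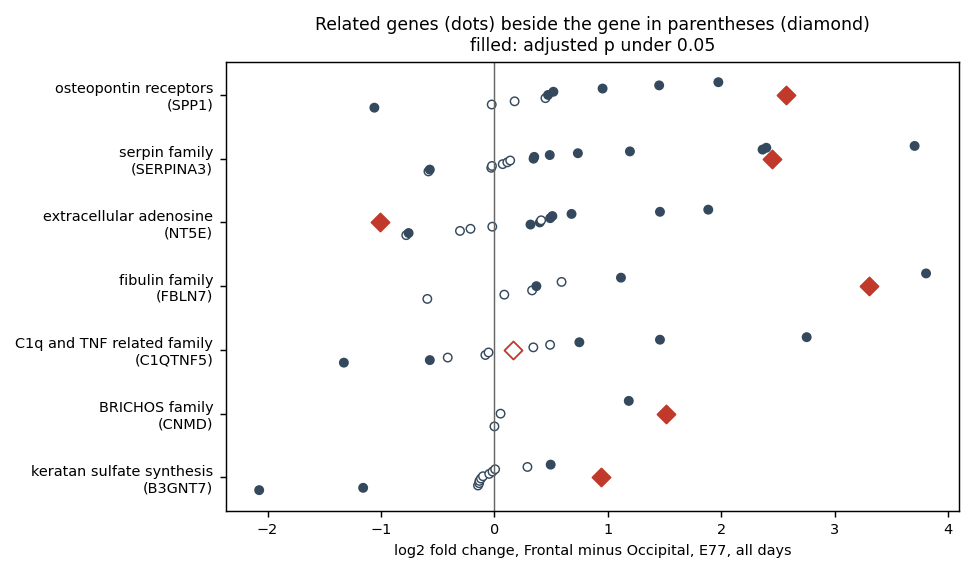
Log2 difference between E77 Frontal and E77 Occipital cultures over all days for the tested genes of 7 lists (dots) and for the gene each list belongs to (diamonds), filled where the edgeR adjusted p was under 0.05, with TNMD left out because its fit has no usable SE. NT5E at -1.01 lies on the opposite side of 0 from 7 called genes of its list, and FBLN7 at 3.30 beside EFEMP1 at 3.81.

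The genes most like each of the 7 over the 20 E77 libraries were ranked by Pearson's r of log2 CPM, among genes with a mean of at least 10 CPM. Libraries share phases, regions and culture series, so r describes a common course and nothing more. FBLN7 was most like the laminin receptor subunit ITGA3 (r = 0.987) and also MYOF (0.969) and SPOCK2 (0.965). SPOCK2, a brain matrix proteoglycan, headed the list for SPP1 as well (0.963), and SPP1 and FBLN7 themselves had r = 0.921. ITGA3 ran from 108 CPM on day 1 to 10.5 CPM on day 20 in Frontal cultures and from 5.16 to 1.21 CPM in Occipital ones.

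CNMD was most like the adenosine receptor ADORA1 (r = 0.956), which fell in Frontal cultures from 40.1 CPM on day 5 to 12.7 CPM on day 20. SERPINA3 was most like FLNC, a filamin, and GFAP (0.931 each). C1QTNF5 was most like NOL4L (0.983), which in Frontal cultures rose from 30.4 to 146 CPM. NOL4L was at 65.9 CPM or more in every E42 library, unlike C1QTNF5, so the likeness held at E77 and not between the ages.

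NT5E was most like PPP1R17, a phosphatase regulator (r = 0.949; 0.992 within the 10 Occipital libraries), and the cartilage collagen COL9A1 (0.945). PPP1R17 went from 17.6 CPM on day 1 to 1.48 on day 6 and 129 on day 20 in Occipital cultures, the same U. B3GNT7 was most like ADAM12 (0.931), a membrane metalloprotease, which was at 43.1 CPM on Frontal day 1, 5.32 on day 6 and 45.3 on day 20, and in Occipital cultures went from 1.33 to 100 CPM. NT5E and B3GNT7 had r = 0.52 with each other over the 20 libraries but 0.89 within Frontal and 0.854 within Occipital cultures, where n was 10 each.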

How the data were processed

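The authors deposited read counts per gene and RPKM values (counts scaled by gene length and library total) for 38 libraries; per the submitters' processing notes, reads were aligned with STAR and counted with featureCounts. Versions, the genome build, the annotation and the strand setting are not given in the sources used here. The deposited RPKM equalled counts over total and 1 length per gene (coefficient of variation at most 4.1e-05 over 13494 genes). No pair of libraries among 703 agreed within counting noise (lowest ratio of spread to noise 10.3).

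Counts were tested with edgeR 4.0.16 (R 4.3.3): filterByExpr on 12 groups, TMM factors (0.899 to 1.104), trended dispersions, robust quasi-likelihood tests in 1 fit of 38 libraries, and Benjamini-Hochberg adjustment over 20794 genes with a threshold of 0.05. Phase comparisons used group means (26 residual degrees of freedom). For regions, a term for day blocked the libraries (19 residual degrees of freedom), since the labels number libraries by day. Same-day deviations of Frontal and Occipital libraries correlated at -0.1 to 0.68, over 0.1 on 9 of 10 days, and those of Anterior and Posterior at 0.09 to 0.39, over 0.1 on 8 of 9 days. CPM use TMM-scaled totals, and likeness used log2 CPM with a prior count of 2. DESeq2 1.42.0, limma 3.58.1 on log2(RPKM + 1) and log2(RPKM + 0.1), other normalizations and filters, single regions and left-out libraries were alternatives. Fits without 1 library kept the trended dispersions of all 38. Removing days 1 or 20 was chosen after seeing the data. The scripts were tested on simulated data.

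The 7 genes and the lists of related genes were chosen with earlier results of these data known. All 7 are named. From each list the text draws on the 3 genes with the highest mean RPKM at E77, and on up to 2 passing genes with the largest change between regions or from transition to terminal. It also names the 3 genes most like each of the 7, or the first of them. TNMD was named after its values were seen. A listed gene that the rule names is not reported here. Gene neighbours come from RefSeq's rhesus annotation. Sequences are not shown because none was used here.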

Additional observations from a re-analysis of the deposited data

Results flagged for a closer look

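The FBLN7 level of the E77 Frontal day 11 library, 17.4 CPM, lay apart from the other 3 terminal libraries of its series (9.13 to 9.88 CPM) by more of the group's range than the 95% critical value of Dixon's test allows. Chance sets about 1 in 20 such groups of independent replicates apart, and 14 groups of 4 libraries were examined. These libraries are successive days, so that rate need not hold here. Frontal FBLN7 fell from 31.9 CPM on day 8 to 17.4 on day 11 and 9.13 on day 14. The change from stem to terminal differed between Frontal and Occipital cultures for B3GNT7 (-3.59 on the log2 scale, edgeR adjusted p = 6.4e-05). It also differed for NT5E (-1.55, adjusted p = 0.00172).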

How the results depend on the processing

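Of the values of single genes, 983 kept their side of the threshold, and their direction where called, when 1 library was left out. In those fits 13 gained the call and 40 lost it. Under the other settings 668 were kept in this sense, 14 gained the call and 31 lost it. A called value reversed in 1 case, B3GNT7 from stem to terminal at E77 in Frontal cultures alone (-0.56). Values that changed sign with no call in either fit are counted as kept. C1QTNF5 from stem to transition at E42 is an example, at 0.43 over both regions and -1.03 in Anterior cultures alone. Counts of called genes moved as follows. Occipital cultures alone gave 2 from stem to transition at E77 (4 in both regions), and Frontal alone gave 2 from transition to terminal (6 in both). From stem to transition at E42 (2), limma on log2(RPKM + 1), the removal of both day 1 libraries and Posterior alone each gave 0, and Anterior alone 1. From transition to terminal at E42 (0), DESeq2 and both limma settings each gave 1. Without the replicate block of days, Frontal against Occipital in the transition gave 3 (5 with it) and the interaction 1 (2 with it), and the cause was not tested for any of these. No day block could be fitted for phase comparisons, since days are nested in phases. Leaving out 1 library gave 4 to 4 calls from stem to transition at E77, 6 to 7 from stem to terminal and 5 to 7 from transition to terminal. At E42 it gave 0 to 2, 3 to 4 and 0 to 1. For Frontal against Occipital it gave 6 to 7 over all days, 5 to 5 in the stem phase, 2 to 4 in the transition and 5 to 6 in the terminal phase. For Anterior against Posterior it gave 2 to 3, and for the interaction 2 to 4. The E42 count from transition to terminal became 1 without the Anterior day 8 library. NT5E, with 16 to 76 reads in E42 libraries, B3GNT7, with 4 to 34, and C1QTNF5, with 3 to 22 in Posterior ones, are limited by depth.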
